A study of Arabidopsis thaliana with 4 samples.

Results

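NAC genes encode a large family of plant transcription factors that share a DNA-binding NAC domain at the start of the protein. Members are known for switching on responses to drought and wounding, for driving leaf senescence, for building secondary walls and water-conducting vessels, and for maturing the root cap. Some are held at membranes and released by cleavage. In this report a NAC gene is a protein-coding nuclear gene whose reference symbol is NAC or ANAC plus a number, without CUC1, CUC2 and CUC3. The rule gave 81 genes among 27444 protein-coding nuclear genes. Each is called here by its ANAC number, because several loci share a symbol such as NAC2 or NAC3.

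Whole seedlings of Arabidopsis thaliana, accession Col-0, were used at an age of about 10 days, under long days (16 h light, 8 h dark). All plants were ebs shl mutants that carried SHL fused to an HA tag under the native SHL promoter. SHL (SHORT LIFE) and the related EBS read marks on histone tails through their BAH and PHD domains and are known as repressors of flowering. Chromatin immunoprecipitation (ChIP) with an antibody against HA was sequenced in 2 samples, and 2 samples of input DNA were made without an antibody. Only the ChIP samples had a peak list, so the input was not analysed here. No sample was ChIP from plants without the tag. Whole seedlings mix many tissues, so a peak cannot be assigned to a cell type. Whether the replicates came from separate plant cultures is not stated, so what they share may be technical.

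On the nuclear chromosomes the list of replicate 1 held 3668 peaks and that of replicate 2 held 3487. Scores are the authors' own values per peak and were used only within a list. They ran from 20.01 to 3217.38 in replicate 1 and from 20 to 3220.27 in replicate 2. A score just above 20 thus lies at the low end of its list. The median was 39.1 in replicate 1 and 39.9 in replicate 2, and 28.9% of the peaks in each list scored at least 100. Read depth is unknown from these lists. A gene was counted as carrying a peak when a peak overlapped its body or the 1 kb on either side by at least 1 bp. Peak positions are those of the TAIR10 build, and the gene table used gave no strand, exon or untranslated region.

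Of the 81 NAC genes, 24 carried a peak in at least 1 list (29.6%, exact 95% interval 20 to 40.8), against 20.5% of all 27444 protein-coding genes. Peaks in both lists were found at 5 NAC genes (6.17%, interval 2.03 to 13.8), against 8.66% of all genes. A peak in 1 list only was found at 19 NAC genes (23.5%), against 11.8% of all genes. The MYB and WRKY families of transcription factors had such shares of 21.7% and 19.4%, so this excess was not particular to NAC genes. The 19 NAC genes were unevenly split, with 14 in replicate 1 only (17.3%, interval 9.78 to 27.3) and 5 in replicate 2 only (6.17%, interval 2.03 to 13.8). Over all genes both shares were alike, at 6.09% in replicate 1 only and 5.75% in replicate 2 only. No test was made of these shares, and the intervals are Clopper-Pearson intervals that cover counting error only. The interval of the share in any list reaches down to 20%, just under the 20.5% of all genes. The NAC shares in both lists and in replicate 2 only had intervals that include those of all genes, and the share in replicate 1 only did not.

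**Figure D1:**
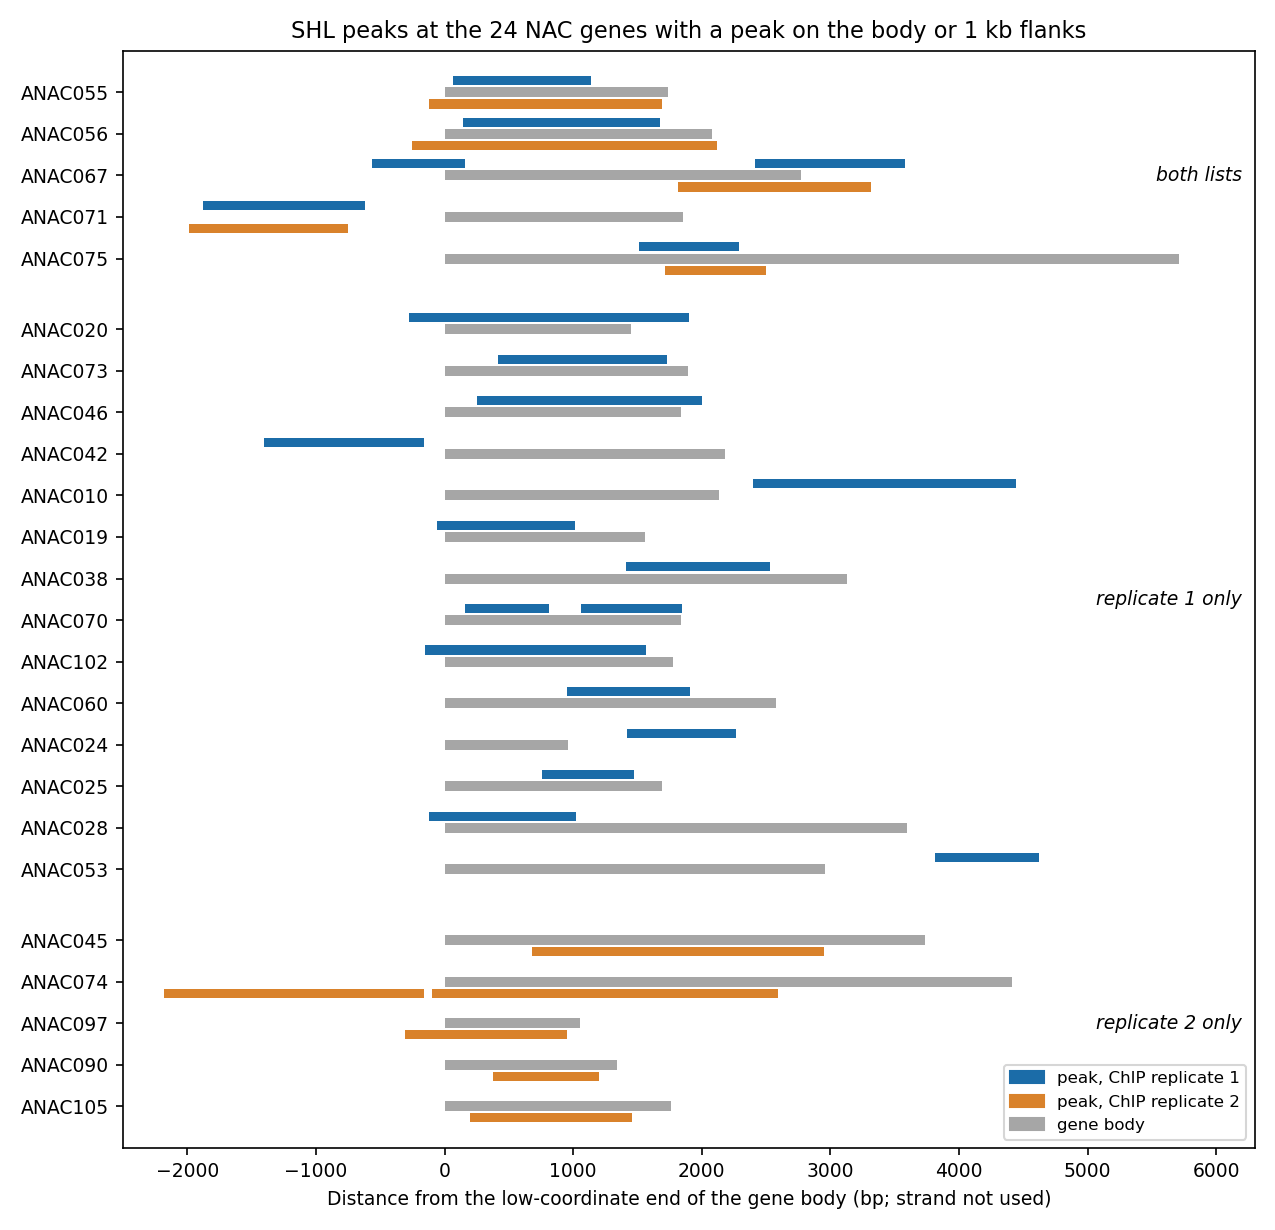
Position of every SHL peak at the 24 NAC genes that carried one, by distance in bp from the low-coordinate end of the gene body (grey bars), with replicate 1 peaks in blue above the body and replicate 2 peaks in orange below it. The 5 genes at the top had peaks in both lists, the next 14 in replicate 1 only and the last 5 in replicate 2 only; 5 of the 24 had peaks beside the body and none on it.

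The 5 NAC genes with peaks in both lists were ANAC055, ANAC056, ANAC067, ANAC071 and ANAC075. ANAC055 (AT3G15500) encodes an activator of drought and jasmonate responses. Its peak scored 34.7 in replicate 1, at chr3:5234520-5235592, and 99.6 in replicate 2, at chr3:5234334-5236147. The replicate 1 peak lay wholly within the replicate 2 peak, which covered 97.2% of the gene body. It had the highest score among the replicate 2 peaks at NAC genes. The next gene on the chromosome, ANAC056 (AT3G15510), encodes a regulator of seed coat development also called NARS1. It had a peak of 23.2 in replicate 1, at chr3:5243575-5245103, and of 78.2 in replicate 2, at chr3:5243179-5245551. The replicate 2 peak covered 100% of its body and again contained the replicate 1 peak. The bodies of both genes are 7235 bp apart, and their peaks are separate.

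ANAC067 (AT4G01520), a gene with no role assigned here, had peaks at the edges of its body. In replicate 1 a peak of 20.7 at chr4:655841-656567 covered 5.81% of the body at its low-coordinate end, and a peak of 53.7 at chr4:658820-659983 covered 13% at the other end. Replicate 2 had 1 peak, of 46.2, at chr4:658219-659723, which overlapped the second of these by 904 bp. The weaker edge therefore had a peak in replicate 1 alone, at percentile 4.47 of the scores in its list. ANAC075 (AT4G29230), reported to act upstream of the vessel regulator VND7, has the longest body of the 24 genes, at 5710 bp. It held a narrow peak inside the body, scoring 31.0 at chr4:14411283-14412064 in replicate 1 and 22 at chr4:14411483-14412270 in replicate 2. Each covered under 14% of the body (13.7% in replicate 1 and 13.8% in replicate 2), and they shared 582 bp. ANAC071 (AT4G17980) encodes a regulator of tissue reunion after wounding. Its peaks lay outside the body and on the neighbouring gene ALMT12, which encodes an anion channel of guard cells. They scored 47.8 at chr4:9976825-9978085 in replicate 1 and 29.6 at chr4:9976719-9977950 in replicate 2, with gaps of 617 bp and 752 bp to ANAC071. This was the only one of the 5 genes without a peak on its own body.

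Among the NAC genes of stress and senescence, 6 of 15 carried a peak in any list (40.0%, exact 95% interval 16.3 to 67.7), against 20.5% of all genes. ANAC055 was the 1 of 15 called in both lists, against 8.66% of all genes. The role groups are small and were put together by hand, and none was tested. ANAC019 (AT1G52890), which acts with ANAC055 in drought and jasmonate responses, had a peak of 36.7 at chr1:19696863-19697937 in replicate 1. It covered 65.1% of the body, and the nearest peak of replicate 2 was 57474 bp away. ANAC046 (AT3G04060), which promotes chlorophyll breakdown, had a replicate 1 peak of 71.5 at chr3:1053615-1055357 over 86.1% of its body. It adjoins ANAC047, a regulator of leaf movement under waterlogging, which had none. ANAC102 (AT5G63790), a regulator of low-oxygen responses, had a replicate 1 peak of 31.8 at chr5:25526360-25528077 over 88.5% of its body, which also touched the neighbouring gene SHA1. The peak at ANAC042 (AT2G43000, JUB1, a negative regulator of senescence) scored 55.8 in replicate 1, at chr2:17879055-17880294. It lay 162 bp outside the body, on the next gene, AT2G42990. ANAC090 (AT5G22380), a negative regulator of leaf senescence, was the 1 gene of this group called in replicate 2 only, with a score of 25.7 at chr5:7409138-7409961. The other 9 had no peak in either list: ANAC032, ANAC036, ANAC047, ANAC059, ANAC083, ANAC087, ANAC092 (ORE1), ANAC096 and ANAC103.

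NAC genes of the root cap and other development carried peaks at 5 of 8 members (62.5%, exact 95% interval 24.5 to 91.5), against 20.5% of all genes, and 2 of the 8 were called in both lists, against 8.66%. Those 2 were ANAC056 and ANAC071, given above, and the peaks of ANAC071 lie on its neighbour. With the family genes under other symbols, the group had peaks at 7 of 12 genes (58.3%) and in both lists at 4 (33.3%). Over all genes these shares were 20.5% and 8.66%. ANAC020 (AT1G54330), a regulator of phloem development, had the highest replicate 1 score of any NAC gene, 94.8, at chr1:20279230-20281406. This peak covered 100% of the body, yet the nearest replicate 2 peak was 11252 bp away. ANAC070 (AT4G10350, BRN2, a regulator of root cap maturation) had a pair of replicate 1 peaks that split its body. They scored 26.3 at chr4:6415278-6415928 and 32.0 at chr4:6416177-6416968. ANAC045 (AT3G03200), which acts in the loss of the nucleus from phloem cells, had a replicate 2 peak of 66.0 at chr3:735568-737842 over 60.9% of its body, which also touched GSTF11. The members without a peak were BRN1 (ANAC015), NAC1 (AT1G56010) and ANAC086, the partner of ANAC045 in phloem.

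NAC genes of secondary walls and vessels carried peaks at 3 of 9 members (33.3%, exact 95% interval 7.49 to 70.1), against 20.5% of all genes. None of the 9 was called in both lists, against 8.66% of all genes, and with 9 genes this absence cannot be told from that share. ANAC075, called in both lists and reported to act upstream of VND7, was not in this group. With the family genes under other symbols, which include VND7 and NST1, the group had peaks at 6 of 13 genes (46.2%) and in both lists at 2 (15.4%). Over all genes these shares were 20.5% and 8.66%. ANAC073 (AT4G28500, SND2, a secondary wall regulator) had a replicate 1 peak of 87.0 at chr4:14083075-14084390 over 69.5% of its body. ANAC010 (AT1G28470, SND3, of the same tier) had a replicate 1 peak of 48.6 at chr1:10012520-10014570, which lay 261 bp outside the body and on GRX480. ANAC105 (AT5G66300, VND3, a vessel differentiation factor) had a replicate 2 peak of 24.9 at chr5:26479963-26481221 over 71.4% of its body. ANAC007 (VND4), ANAC012 (NST3), ANAC026 (VND5), ANAC066 (NST2), ANAC076 (VND2) and ANAC101 (VND6) had none.

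Membrane-tethered NAC factors, which are released by cleavage under stress, had a peak at 2 of 10 members, a share close to the 20.5% of all genes. Both were called in replicate 1 only, against 6.09% of all genes, and none in both lists, against 8.66%. With the family genes under other symbols, the group had peaks at 2 of 13 genes (15.4%). ANAC060 (AT3G44290), which acts in sugar and abscisic acid responses, had a peak of 29.4 at chr3:15973627-15974579 over 37.0% of its body. ANAC053 (AT3G10500), of the response to proteasome stress, had one of 20.8 at chr3:3275034-3275838, at percentile 4.54 of the scores in its list. That peak lay 857 bp outside the body and on AT3G10510. ANAC013, ANAC014, ANAC016, ANAC017, ANAC062, ANAC069, ANAC078 and ANAC089 had none. Neither did ANAC044 and ANAC085, which act in the DNA damage response, nor ANAC050 and ANAC052, which bind the histone demethylase JMJ14. ANAC082, of the ribosomal stress response, had none either.

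**Figure D2:**
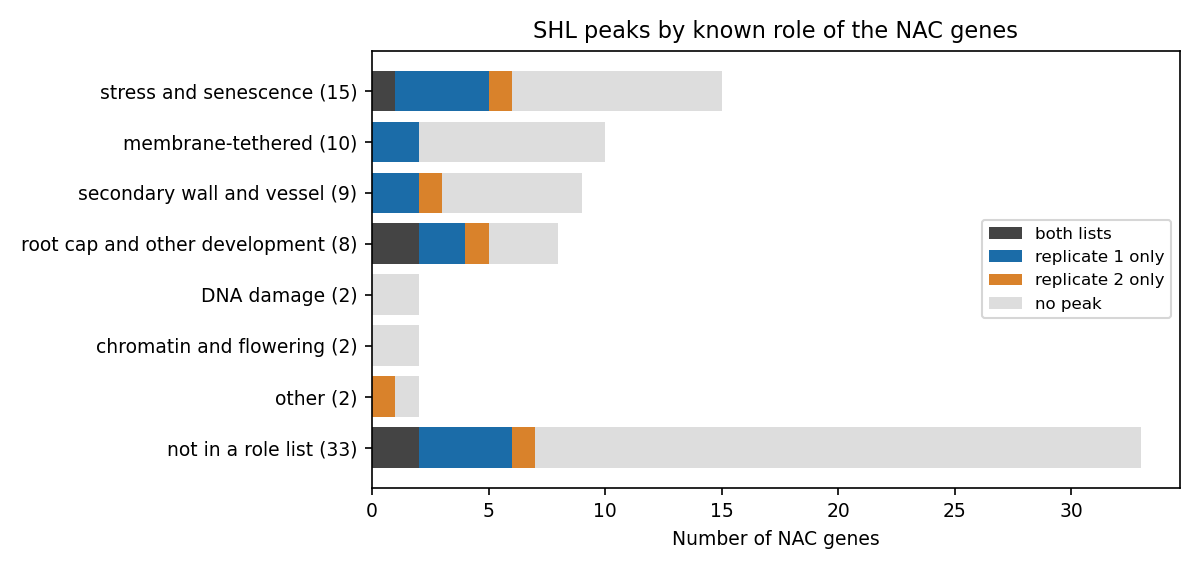
Number of NAC genes in each role group (horizontal axis, group size in brackets), split by whether the gene carried a peak in both lists, in replicate 1 only, in replicate 2 only or in neither. The genes with peaks in both lists were 1 in the stress and senescence group, 2 in the development group and 2 without an assigned role.

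The last gene with both a peak and a role assigned here, ANAC074 (AT4G28530, a regulator of cell death in the stigma), had 2 peaks in replicate 2. The peak of 62.4 at chr4:14090393-14093079 covered 58.7% of its body. The other, of 30.2 at chr4:14088306-14090329, lay 159 bp outside it, on the seed storage gene CRU3. It overlapped a replicate 1 peak of 50.6. ANAC073 lies on the other side of CRU3. This stretch of chromosome 4 thus held a replicate 1 peak on ANAC073, a replicate 2 peak on CRU3 with an overlapping replicate 1 peak, and a replicate 2 peak on ANAC074.

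The 33 genes without an assigned role carried peaks at 7 (21.2%), a share close to the 20.5% of all genes. ANAC067 and ANAC075 were called in both lists. ANAC038 (AT2G24430) had a replicate 1 peak of 32.4 at chr2:10384906-10386030, ANAC025 (AT1G61110) one of 24.4 at chr1:22517361-22518075 and ANAC028 (AT1G65910) one of 23.4 at chr1:24520544-24521688, all on the body. The replicate 1 peak of 24.9 near ANAC024 (AT1G60350), at chr1:22242695-22243538, lay 459 bp outside it and on AT1G60360. ANAC097 (AT5G50820) was called in replicate 2 only, with a peak of 37.7 at chr5:20678911-20680174 over 90.5% of its body. The other 26 genes of this group had no peak.

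A peak on the gene body itself was found at 19 of the 81 NAC genes (23.5%), against 14.3% of all protein-coding genes. These 19 were 79.2% of the 24 NAC genes with a peak, against 69.9% of the 5625 protein-coding genes with one. Of MYB and WRKY genes, 29.6% and 37.3% had a peak on the body, which was 97.1% and 86.2% of those with any peak. Neither excess over all genes was therefore particular to NAC genes. The 24 NAC genes held 32 peaks, and no peak lay at more than 1 of them. Of these, 25 overlapped a body, 23 of the 25 had their midpoint in it, and they covered a median of 60.9% of it (range 5.81% to 100%). Only 2 of the 25 touched another protein-coding body. All 7 peaks in the flanks did, as did 81.4% of the flank peaks of all protein-coding genes. The 5 genes with flank peaks alone (ANAC010, ANAC024, ANAC042, ANAC053 and ANAC071) therefore each shared the signal with an annotated neighbour. Median gene length was 1873.5 bp for the NAC genes with a peak and 1926 bp for those without.

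No peak at a NAC gene scored 100 or more. In replicate 1 the 21 peaks at NAC genes ran from 20.7 to 94.8 with a median of 32.0, and 0 of 21 reached 100, which allows a share of up to 14.3% by the limit of 3 counts (exact upper bound 16.1%). In replicate 2 the 11 peaks ran from 22 to 99.6 with a median of 37.7, and 0 of 11 allows up to 27.3% by the same limit (exact upper bound 28.5%). Of the peaks at all protein-coding genes, 19.5% reached 100 in replicate 1 and 19.7% in replicate 2, while their medians, 33.8 and 34.3, were near those of the NAC genes. By rank within its list, the highest NAC peak stood at percentile 70.6 in replicate 1 and 71.1 in replicate 2. In replicate 2 the bound of 28.5% includes the 19.7% of all genes, so the absence there cannot be told from that share. In replicate 1 the bound of 16.1% lies below the 19.5% of all genes, and the difference was not tested. WRKY genes, another family of transcription factors, had 3 of 27 peaks at 100 or more in replicate 1 and 3 of 24 in replicate 2. MYB genes had 1 of 26 in replicate 1 and 1 of 30 in replicate 2. Their median scores, 25.3 and 25.7, were below those of the NAC genes. Median peak width was 1125 bp at NAC genes and 1109 bp at all genes in replicate 1, and 1505 bp and 1264 bp in replicate 2.

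**Figure D3:**
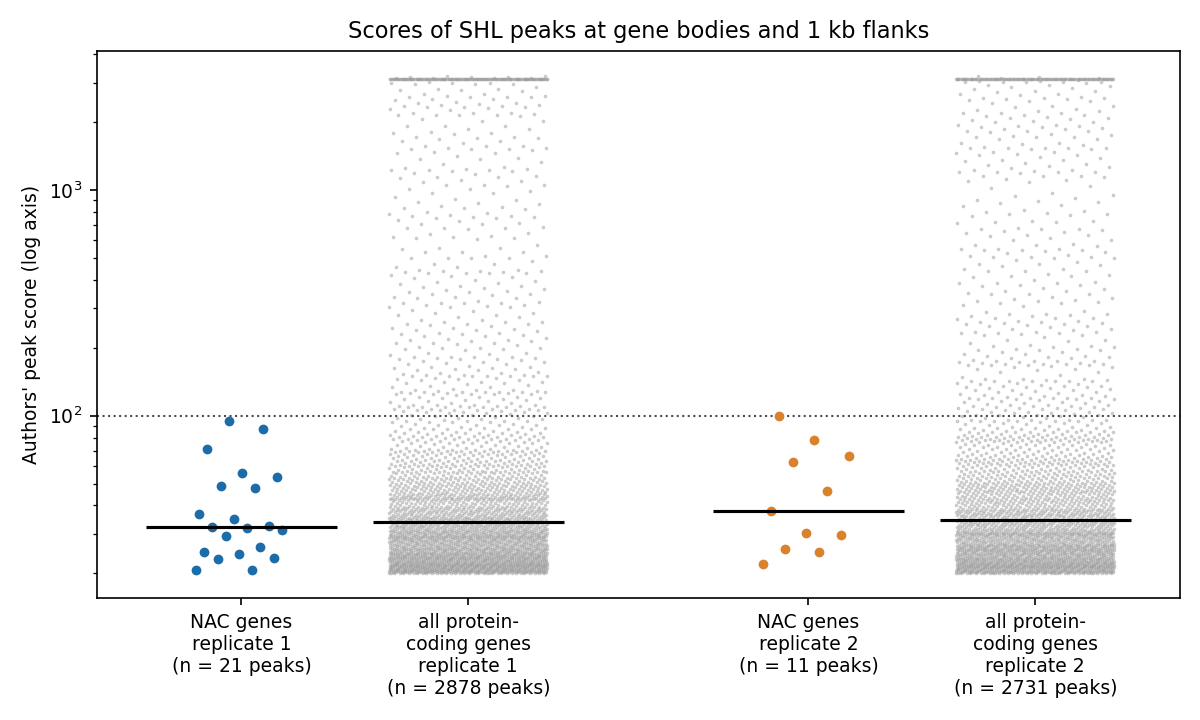
Authors' score of each peak (log axis) at the bodies and 1 kb flanks of NAC genes (coloured points) and of all protein-coding genes (grey points), by replicate, with the median as a black line and a dotted line at 100. All 21 NAC peaks of replicate 1 and all 11 of replicate 2 sit below 100, while 19.5% and 19.7% of the peaks at all genes reach it.

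Replicate 1 called 19 of the 81 NAC genes (23.5%), against 14.8% of all genes, and replicate 2 called 10 (12.3%), against 14.4%. The 5 genes called in both lists were 26.3% of the 19 NAC genes of replicate 1 and 50% of the 10 of replicate 2. Over all protein-coding genes the shares were 58.7% of the genes of replicate 1 and 60.1% of those of replicate 2. For MYB genes they were 50% and 40%, also below those of all genes, and for WRKY genes 72.7% and 69.6%. With the family genes under other symbols, the 9 genes called in both lists were 37.5% of 24 genes of replicate 1 and 60% of 15 genes of replicate 2, so the replicate 2 share was close to that of all genes. Over all genes, the share of peaks that recurred was higher at higher scores: 31.5% of replicate 1 peaks scoring 20 to 30 overlapped a replicate 2 peak, 80.3% of those scoring 50 to 100 and 99.5% of those above. At NAC genes, 1 of the 5 replicate 1 peaks scoring 50 to 100 did, the one at ANAC067. Those at ANAC020, ANAC073, ANAC046 and ANAC042, between 55.8 and 94.8, did not. In replicate 2, 2 of 4 NAC peaks scoring 50 to 100 overlapped a replicate 1 peak (ANAC055 and ANAC056), and those at ANAC045 and ANAC074 did not, against 85.2% over all genes. These numbers are small, the comparison was chosen after the values were seen, and no test was made. The strongest peak of each of the 19 genes called once was a median of 10571 bp from the nearest peak of the other list, and 1 of them, ANAC074, was within 1 kb of one (971 bp).

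**Figure D4:**
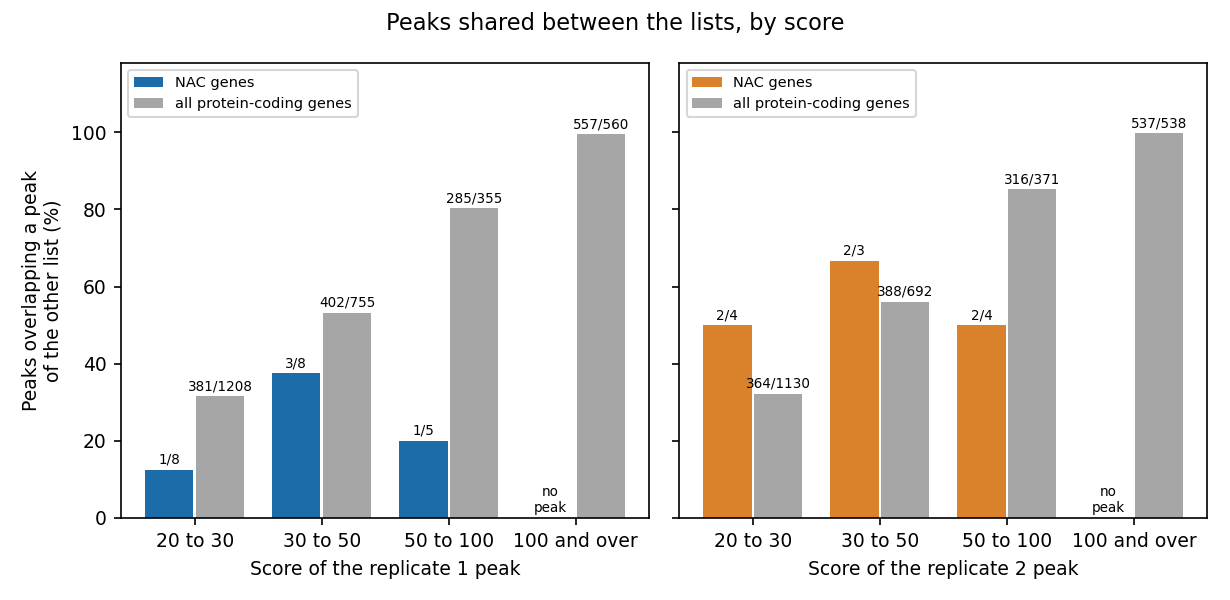
Share of peaks that overlap a peak of the other list (vertical axis, percent), by score of the peak, for NAC genes (coloured) and all protein-coding genes (grey), with replicate 1 at left and replicate 2 at right and counts above the bars. In the 50 to 100 class 1 of 5 replicate 1 peaks and 2 of 4 replicate 2 peaks at NAC genes recurred, against 80.3% and 85.2% over all genes.

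Other transcription factor families were counted in the same way. A peak in any list was found at 30.4% of MYB genes and 43.3% of WRKY genes, against 29.6% of NAC genes and 20.5% of all genes. WRKY genes had peaks in both lists at 16 of 67 genes (23.9%, exact 95% interval 14.3 to 35.9), against 8.66% of all genes, in replicate 1 only at 6 and in replicate 2 only at 7. MYB genes, by symbols of MYB plus a number, had them in both lists at 10 of 115 (8.70%, interval 4.25 to 15.4), close to that share, in replicate 1 only at 10 and in replicate 2 only at 15. The intervals of NAC and MYB genes overlap for each class. With the 16 NAC family genes under other symbols the NAC share in both lists was 9.28%, and that in replicate 1 only was 15.5%. The differences between families were not tested.

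**Figure D5:**
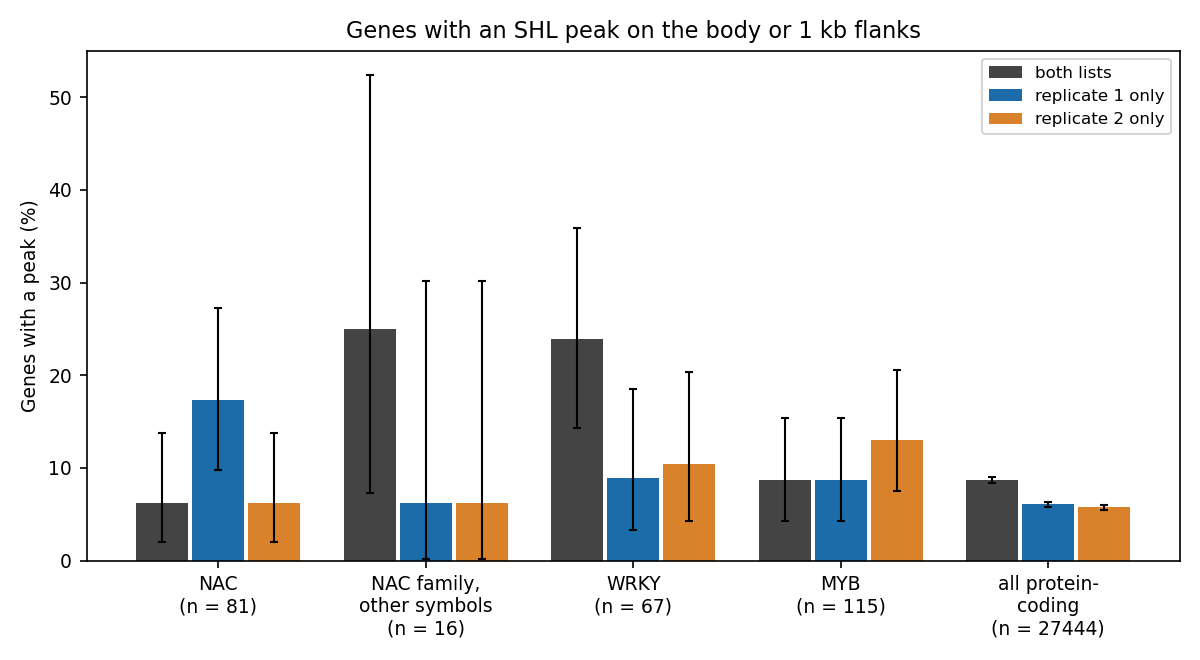
Share of genes with an SHL peak on the body or 1 kb flanks (percent) in both lists, in replicate 1 only and in replicate 2 only, for NAC genes, NAC family genes under other symbols, WRKY, MYB and all protein-coding genes; error bars are exact 95% intervals for counting error. NAC genes stand at 6.17% in both lists, 17.3% in replicate 1 only and 6.17% in replicate 2 only.

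A further 16 NAC family genes have an ANAC number among their synonyms and a name as symbol, and are not among the 81. Of these, 4 had peaks in both lists (25%, exact 95% interval 7.27 to 52.4), against 8.66% of all genes, 1 in replicate 1 only and 1 in replicate 2 only. NST1 (AT2G46770), a master switch of fibre wall thickening, scored 96.3 in replicate 1 and 44.0 in replicate 2. Both of its peaks also touched the protein-coding gene AT2G46765. VND7 (AT1G71930), the master switch of protoxylem vessels, had body peaks of 32.7 and 21.9 in replicate 1 and of 41.0 in replicate 2. It also had a flank peak of 66.7 in replicate 2, which lay 743 bp outside the body and on non-coding RNA genes. LOV1 (AT2G02450), a floral repressor, scored 23.2 in replicate 1, and 39.7 and 37.1 in replicate 2. Its peak of 37.1 also touched the protein-coding gene AT2G02455. FEZ (AT1G26870), which drives root cap stem cell divisions, scored 23.4 in replicate 1 and 22.7 in replicate 2, with the replicate 2 peak reaching 4 bp into the body. None of these scored 100 either. VND1 (AT2G18060), a vessel factor, had its highest peak, 44.1, in replicate 1 only. RD26 (AT4G27410, ANAC072), which acts with ANAC019 and ANAC055 in drought responses, had a peak of 37.4 in replicate 2 only. Over stress and senescence genes of either kind of symbol, 7 of 19 carried a peak (36.8%), against 20.5% of all genes, and 12 did not. The stress and senescence genes ATAF1, ATAF2 and NAP had none, nor did SMB, XND1, SOG1, NAM, NTL8, NTM1 and TIP.

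The 24 NAC genes with a peak were spread over all 5 chromosomes, with 6 of 24 members on chromosome 1, 2 of 4 on chromosome 2, 6 of 21 on chromosome 3, 6 of 8 on chromosome 4 and 4 of 24 on chromosome 5. Among all protein-coding genes the share with a peak ran from 19.8% on chromosome 5 to 21.2% on chromosome 1. Of the 8 members on chromosome 4, 3 were called in both lists, against 8.66% of all genes over the 5 chromosomes. Of the 24 on chromosome 5, 3 were called in replicate 2 only, against 340 of 6331 protein-coding genes there. These counts are too small to read as a pattern and were not tested. NAC genes next to each other gave 9 adjacent pairs. Both genes carried a peak in 1 pair, ANAC055 with ANAC056. In 2 pairs 1 gene did (ANAC046 beside ANAC047, and ANAC053 beside ANAC052), and in the other 6 pairs neither did.

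The 57 NAC genes without a peak lay a median of 12570 bp from the nearest peak of either list, and the farthest was 86515 bp away. Just inside the 1 kb limit was ANAC053, at 857 bp. Of the genes without a peak, the one just outside it was ANAC093 (AT5G39690), with a replicate 2 peak of 23.0 at 1205 bp. ANAC074, called in replicate 2 only, had a replicate 1 peak of 50.6 at 1067 bp, so its class depends on the limit. ANAC092 (ORE1, which drives leaf senescence) had a replicate 2 peak of 26.9 at 1530 bp and a replicate 1 peak of 159.1 at 2123 bp. ANAC012 and ANAC066, which promote secondary wall thickening, had their nearest peaks at 1607 bp, with a score of 23.2 in replicate 2, and at 1868 bp, with a score of 23.0 in replicate 1.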

How the data were processed

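The submitters' processing notes name TAIR10 as the build, and MACS 1.4, SAMtools 1.3 and Bowtie2 2.2.8 as tools. The authors deposited 1 peak list per ChIP sample, each with a score per peak from their peak caller. The settings, filters and control are not given in the sources used here. Gene positions came from the RefSeq table of assembly TAIR10.1. Without a shift, 64.9% of replicate 1 and 63.5% of replicate 2 midpoints fell in protein-coding bodies, against 36.9% and 35.3% after a shift of -1500 bp and 36.1% and 35.8% after 1500 bp, so nuclear positions were taken as the same, and no gene coordinate is given. Starts are given 1-based.

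Overlaps were computed with Python 3.11.15 and pandas 2.3.3, with code tested on simulated data. A gene window was the body and 1 kb on either side, and 1 bp of overlap counted. All 81 members were tested without a filter on scores, and the main counts were set beside the shares over all 27444 genes. No set test was made. Members, role lists and comparisons were chosen with earlier results of these data known. Every NAC gene with a peak was named. Sequences, motifs and strand were not analysed here.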

Additional observations from a re-analysis of the deposited data

How the results depend on the processing

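With the gene body alone, flanks of 500 bp or 2 kb, the peak midpoint, or an overlap of 1 bp or a reciprocal 50% between the lists' peaks, 4 to 6 NAC genes had peaks in both lists (4.94% to 7.41%, against 5.86% to 11.7% of all genes) and 15 to 22 in 1 list only (18.5% to 27.2%, against 8.47% to 14.3%). With peaks scoring at least 50, 0 genes were called in both lists, against 3.74% of all genes, and 9 in 1 list only (11.1%), against 2.95%. With peaks scoring at least 100 there were 0 of each, since no NAC peak scores that high, against 2.71% of all genes in both lists and 0.845% in 1 list only. Leaving out 1 replicate gave counts from 10 (without replicate 1; 12.3%, against 14.4% of all genes) to 19 (without replicate 2; 23.5%, against 14.8%). Adding the 16 family genes under other symbols gave 9 of 97 genes (9.28%), against 8.66% of all genes. The authors' threshold and the unknown read depth limit how far a gene without a peak can be read as unbound. No paired analysis was possible because the input samples had no peak list.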
